A study of Mus musculus with 6 samples.

Results

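Hedgehog signalling was described here through 9 genes: the ligands Shh, Ihh and Dhh, the receptors Ptch1 and Smo, the ligand-binding inhibitor Hhip, and the transcription factors Gli1, Gli2 and Gli3. They were chosen by name from the 19938 genes with a value of their own, and each lay on exactly 1 row of the array table whose annotation gives a single gene symbol. The cells were mouse embryonic stem cells of the W4/129S6 background with a knock-in reporter, Nkx2-1GFP, which marks cells that express the homeodomain factor gene Nkx2-1 with green fluorescent protein (GFP). After 14 days of differentiation they were sorted into GFP-positive cells (Nkx2-1 high, 3 samples) and GFP-negative cells (Nkx2-1 low, 3 samples). Both groups therefore carry the reporter allele, and whether the line is a single clone is not given in the sources used here. The labels describe purified lung and thyroid progenitors of endoderm as the aim, and the comparison asks how the sorted progenitors differ from the other cells of the culture. The protocols speak of biological replicates but do not say whether these came from separate cultures, so the p-values measure the spread between these samples, which may in part be technical.

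Hedgehog proteins are secreted signals that bind Patched receptors. Without ligand, Patched holds back the membrane protein Smoothened, and Gli2 and Gli3 are processed at the primary cilium into repressors. With ligand, Smoothened is released, Gli activators form, and the cell transcribes Gli1, Ptch1 and Hhip, which therefore serve as readouts of pathway activity. In the embryonic lung the epithelium makes Shh and the surrounding mesenchyme responds to it, and in the ventral forebrain Shh acts upstream of Nkx2-1.

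Values are log2 expression as deposited. A difference is the mean of Nkx2-1 high less that of Nkx2-1 low, and ± gives its standard error (SE) in limma, a linear model with a moderated variance fitted to all 19938 genes. A gene was called when its Benjamini-Hochberg adjusted p was under 0.05, and "fell" and "rose" are used for called genes that were lower or higher in Nkx2-1 high. The background level, 4.30, is the 95th percentile of the values of olfactory and vomeronasal receptor genes. The sorted gene, Nkx2-1, averaged 7.72 ± 0.08 (SD, n = 3) in GFP-positive and 5.33 ± 0.09 (SD, n = 3) in GFP-negative samples, with no overlap, so that no sample went against its label. The GFP-negative mean was above background too. The pluripotency genes Pou5f1 and Nanog were not above background in either group. Array medians ran from 4.98 to 5.06, and the median absolute log2 difference between samples of a group ran from 0.0968 to 0.133.

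Among the 9 members, only a pair of Gli genes was called. Gli1 was 1.54-fold and Gli3 1.46-fold lower in Nkx2-1 high, and these were the only members called, 2 of 9 (22.2%), where 3.09% of all genes fell. None of the 9 members rose, where 2.90% of all genes did, and in either direction 6.0% of all genes were called. These shares count genes not above background as well. A fit to only the 13398 genes with at least 1 group mean above background called 1510 of them, 800 lower, and 2 of the 9 members. The estimate was negative for 8 of the 9 members and positive for Dhh alone, with a median of -0.15 over the 9 beside -0.01 over all genes. The 2 groups did not overlap for Gli1, Gli2 and Gli3, 3 of 9 members, not far from the 24.7% of all genes without overlap. All 9 members had at least 1 group mean above the background level, with Dhh and Hhip only just above it. The plot of members by sample shows every value.

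**Figure D1:**
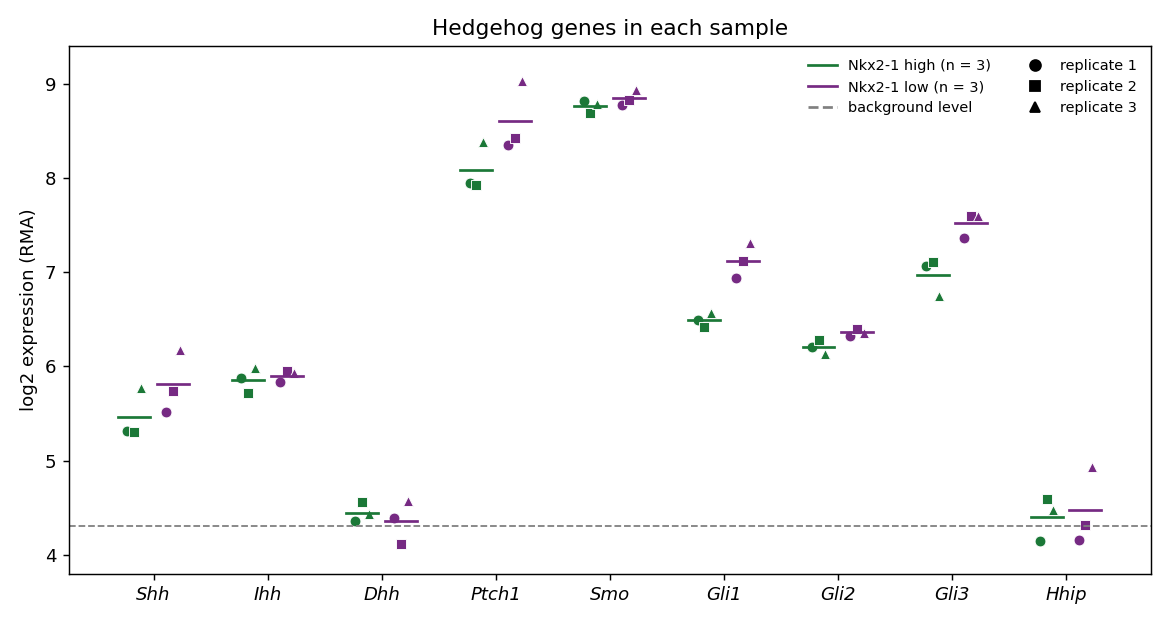
Log2 expression of the 9 Hedgehog genes in each of the 6 samples. Green marks Nkx2-1 high and purple Nkx2-1 low (3 samples each), symbols give the replicate number, short lines the group means, and the dashed line the background level of 4.30. Gli1, Gli2 and Gli3 lie lower in every Nkx2-1 high sample than in any Nkx2-1 low sample, while Shh, Ihh, Dhh, Ptch1, Smo and Hhip overlap.

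None of the ligand genes was called. Shh, the ligand of the lung bud epithelium, the notochord and the floor plate of the neural tube, stood at 5.31, 5.30 and 5.77 in Nkx2-1 high replicates 1, 2 and 3 and at 5.52, 5.73 and 6.18 in Nkx2-1 low replicates 1, 2 and 3. The ranges overlapped, since Nkx2-1 high replicate 3 was above Nkx2-1 low replicates 1 and 2. The difference was -0.35 ± 0.18 (limma adjusted p = 0.327), with a 95% interval from -0.74 to 0.04. Without Nkx2-1 low replicate 3 it was -0.17 ± 0.15 (adjusted p = 0.666). With the replicate number as a block in the model it was -0.35 ± 0.08 and passed (adjusted p = 0.0418), but the numbers are not known to pair the samples.

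Ihh, the ligand of growth plate cartilage and gut, was nearly flat. It stood at 5.88, 5.71 and 5.99 in Nkx2-1 high and at 5.83, 5.95 and 5.93 in Nkx2-1 low, and the difference was -0.04 ± 0.09 (limma adjusted p = 0.860, 95% interval from -0.24 to 0.16). Dhh, the ligand of Sertoli and Schwann cells, lay at the background level in both groups. Its values were 4.36, 4.56 and 4.43 in Nkx2-1 high and 4.39, 4.12 and 4.57 in Nkx2-1 low, a difference of 0.09 ± 0.12 (limma adjusted p = 0.755, 95% interval from -0.17 to 0.35). The sign of the Ihh difference turned without Nkx2-1 high replicate 2 (0.03) and that of Dhh without Nkx2-1 low replicate 2 (-0.03).

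Among the receptors, Ptch1 had the larger difference and Smo a small one. Ptch1, which encodes the ligand receptor and is itself a transcriptional target of the pathway, stood at 7.95, 7.93 and 8.38 in Nkx2-1 high and at 8.35, 8.42 and 9.03 in Nkx2-1 low. The groups overlapped by a single sample, because Nkx2-1 high replicate 3 (8.38) exceeded Nkx2-1 low replicate 1 (8.35). The mean was 1.43-fold lower in Nkx2-1 high (-0.52 ± 0.18), which did not pass (limma adjusted p = 0.153), although the unadjusted 95% interval ran from -0.93 to -0.11. In both groups replicate 3 was the highest for Shh, Ptch1 and Gli1. Without Nkx2-1 low replicate 3 alone, the Ptch1 difference was -0.30 ± 0.14 (adjusted p = 0.328). Without both samples numbered 3, the Ptch1 difference was -0.45 ± 0.09 and passed the threshold (adjusted p = 0.0352). Between same-numbered samples the Ptch1 differences were -0.40, -0.49 and -0.65. With the replicate number as a block in the model, the Ptch1 difference was -0.52 ± 0.08 and passed (adjusted p = 0.00833), but the numbers are not known to pair the samples.

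Smo encodes the membrane protein that relays the signal once Patched is bound. Its values were 8.81, 8.69 and 8.78 in Nkx2-1 high and 8.78, 8.83 and 8.93 in Nkx2-1 low, well above background in all 6 samples. The difference was -0.08 ± 0.08 (limma adjusted p = 0.640, 95% interval from -0.26 to 0.09), or -0.04 without Nkx2-1 low replicate 3. Hhip, a membrane protein that binds Hedgehog ligands and limits their range, is a target gene too, but it was measured close to background. It stood at 4.14, 4.59 and 4.48 in Nkx2-1 high and 4.16, 4.32 and 4.93 in Nkx2-1 low. The highest value was that of Nkx2-1 low replicate 3. The difference of -0.07 ± 0.19 (limma adjusted p = 0.890, 95% interval from -0.49 to 0.36) turned to 0.16 without that sample and to 0.06 without Nkx2-1 high replicate 1.

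**Figure D2:**
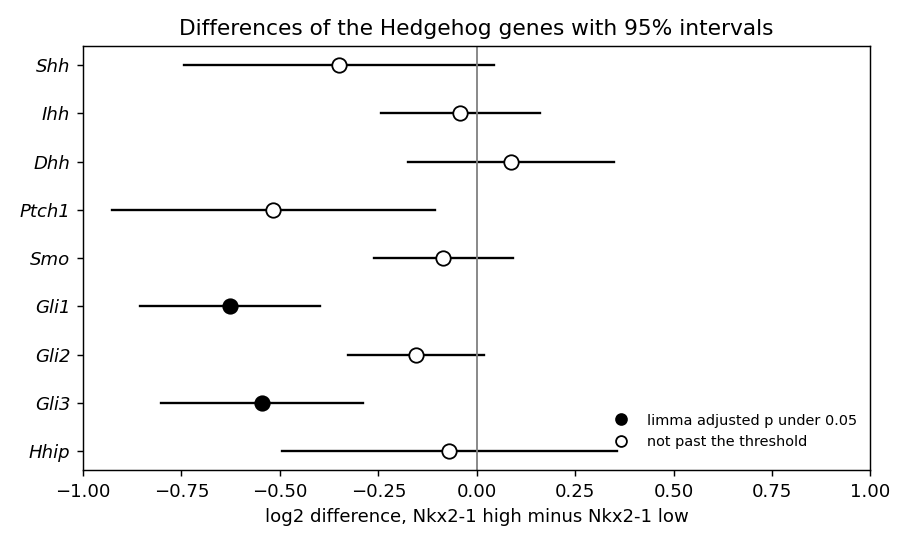
Log2 difference, Nkx2-1 high minus Nkx2-1 low, of each Hedgehog gene (points) with its 95% interval from limma (lines), 3 samples per group. Filled points passed an adjusted p of 0.05, which Gli1 (-0.63) and Gli3 (-0.54) did, and the unadjusted interval of Ptch1 also lies below 0.

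Gli1, the activator whose transcription is the most direct readout of Gli activity, stood at 6.49, 6.42 and 6.57 in Nkx2-1 high and at 6.94, 7.11 and 7.30 in Nkx2-1 low. Every Nkx2-1 high sample was below every Nkx2-1 low sample, with a gap of 0.37 between the nearest values. Gli1 fell by 0.63 ± 0.10 (limma adjusted p = 0.00648), and 2.0% of all genes had a smaller p. For this gene alone the exact two-sided permutation p was 0.1, which is the lowest value that groups of 3 can reach. Gli1 was still expressed above background in the sorted Nkx2-1 cells. It kept the call in all 6 fits that each left out 1 sample (adjusted p from 0.0066 to 0.0373).

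Gli3, which is processed mainly into a repressor when ligand is absent, stood at 7.07, 7.10 and 6.74 in Nkx2-1 high and at 7.36, 7.59 and 7.60 in Nkx2-1 low. The groups did not overlap, and Nkx2-1 high replicate 3 was the lowest of all. Gli3 fell by 0.54 ± 0.11 (limma adjusted p = 0.0222; exact permutation p = 0.1). The call did not survive leaving out low replicate 2 (adjusted p = 0.0875), low replicate 3 (adjusted p = 0.0715) or both samples numbered 3 (-0.39 ± 0.11, adjusted p = 0.106).

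Gli2, the main activator of the first response to ligand, stood at 6.21, 6.28 and 6.13 in Nkx2-1 high and at 6.33, 6.40 and 6.35 in Nkx2-1 low. These groups did not overlap either, but the difference was small, -0.15 ± 0.08 (limma adjusted p = 0.327, 95% interval from -0.33 to 0.02). Gli2 and Gli3 are close relatives. The 250 bases before their RefSeq starts (GRCm38.p6) are printed because the shifts of these 2 genes are compared next. Capitals mark CG dinucleotides, lines run 5′ to 3′ on the strand of the gene, Gli2 from chr1:119053620-119053869 (minus strand) and Gli3 from chr13:15463473-15463722 (plus strand).
Gli2: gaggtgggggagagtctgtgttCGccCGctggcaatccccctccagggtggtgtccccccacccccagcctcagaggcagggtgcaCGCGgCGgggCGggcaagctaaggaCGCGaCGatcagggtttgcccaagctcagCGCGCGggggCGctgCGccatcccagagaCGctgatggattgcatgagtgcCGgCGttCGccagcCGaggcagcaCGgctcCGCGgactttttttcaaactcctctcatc
Gli3: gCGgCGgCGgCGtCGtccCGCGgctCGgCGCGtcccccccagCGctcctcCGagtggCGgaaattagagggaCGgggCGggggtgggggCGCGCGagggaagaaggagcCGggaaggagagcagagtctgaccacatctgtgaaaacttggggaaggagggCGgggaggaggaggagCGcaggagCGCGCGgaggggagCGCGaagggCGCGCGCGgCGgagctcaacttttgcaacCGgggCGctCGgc

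Both stretches are rich in CG, with 22 such dinucleotides before Gli2 and 34 before Gli3, where the median over the same 250 bases of 32851 RefSeq windows is 6. The 7 members with a window (Ihh, Dhh, Ptch1, Smo, Gli2, Gli3 and Hhip) held between 9 and 41, with the fewest in Dhh and the most in Ptch1. The Gli binding motif GACCACCCA, searched on both strands without mismatch over 250 bases before and 50 after the start, was in 0 of these 7 windows and in 0.253% of all windows. No match says only that these letters are not in this window.

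Within a sample, the difference between 2 Gli genes shows whether their array values shifted unequally, and whether their RNA did was not tested. Gli2 minus Gli3 was -0.86, -0.82 and -0.61 in Nkx2-1 high and -1.03, -1.19 and -1.24 in Nkx2-1 low, so Gli3 was lower relative to Gli2 in every Nkx2-1 high sample, by 0.39 in the mean. Gli1 minus Gli2 was 0.28, 0.14 and 0.44 in Nkx2-1 high and 0.61, 0.71 and 0.95 in Nkx2-1 low, a difference of -0.47 with no overlap. Both gave p = 0.1 in an exact two-sided permutation test, the smallest value the design allows, and 0.15 when adjusted over the 3 pairs compared. Gli1 minus Gli3 overlapped between the groups, with -0.58, -0.69 and -0.18 in Nkx2-1 high and -0.42, -0.48 and -0.29 in Nkx2-1 low (difference -0.08, exact permutation p = 0.7). The differences of Gli1 (-0.63) and Gli3 (-0.54) could not be told apart with these samples, and replicate 3 of Nkx2-1 high combined the highest Gli1 and the lowest Gli3 of its group. Only differences between groups are read from these values, since the level of 1 gene on an array cannot be set against that of another.

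**Figure D3:**
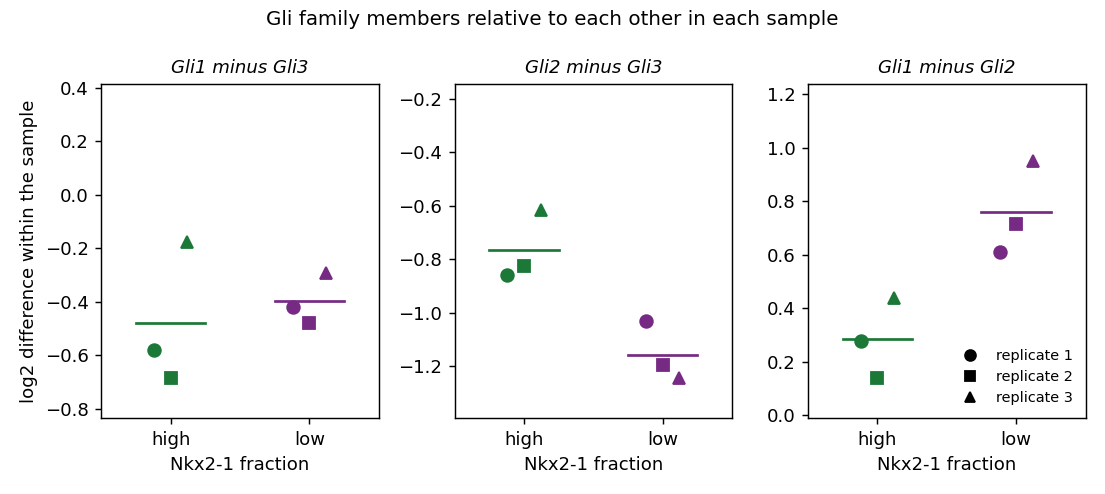
Log2 expression of 1 Gli gene minus another within each sample, for the 3 samples of Nkx2-1 high (green) and the 3 of Nkx2-1 low (purple), with lines at the group means and symbols for the replicate number. The groups are apart for Gli2 minus Gli3 and for Gli1 minus Gli2 and overlap for Gli1 minus Gli3, and the 3 panels span the same number of log2 units.

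The genes closest to Gli1 and Gli3 in their pattern over the 6 samples were found among 12599 genes above background, by the root mean square distance between log2 values centred on each gene's mean. Closest to Gli1 were the receptor gene Notch1 (distance 0.062, difference -0.56 ± 0.09), the T-box gene Tbx1 (0.074, -0.54 ± 0.12) and the kinesin gene Kif24 (0.075, -0.49 ± 0.10). Closest to Gli3 were the homeobox gene Hoxd9 (0.058, -0.48 ± 0.11), the transcriptional coactivator gene Eya4 (0.059, -0.48 ± 0.09) and the deubiquitinase gene Usp46 (0.070, -0.48 ± 0.10). Likeness over 6 samples is given as a description only.

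Other genes of the pathway were taken from 8 lists with 113 entries, of which 103 genes were measured and 97 lay above background. Of the 103, 10 fell and 4 rose (13.6% called, beside 6.0% of all genes), and their median difference was -0.03. The 6.0% counts genes not above background as well, and a fit to only the 13398 genes above background called 1510 of them, a larger share. In that fit 9 mesenchymal and 2 neural targets were called, and the other lists kept their counts. Of the 14 calls in the lists, 8 were in the list of mesenchymal targets, which also holds craniofacial and limb genes that other signals control.

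Of 6 genes for the release of ligand, 1 rose and 0 fell (median 0.09). Scube1, of a family of secreted proteins that help Hedgehog ligands leave the cell, was 2.01-fold higher, at 8.36, 8.52 and 9.19 in Nkx2-1 high and 7.43, 7.75 and 7.86 in Nkx2-1 low (1.01 ± 0.20, limma adjusted p = 0.0162). Its groups did not overlap, and the call was lost only without Nkx2-1 low replicate 1 (adjusted p = 0.0696) among the fits that left out 1 sample. Disp1, the transporter that exports the lipid-modified ligand, differed by 0.13 ± 0.10 and Hhat, the acyltransferase that modifies it, by -0.04 ± 0.07, neither of them called.

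Of 11 genes for reception, 0 rose and 2 fell (median -0.02). Gas1, a membrane-anchored co-receptor that aids ligand binding, stood at 6.59, 6.53 and 6.49 in Nkx2-1 high and 7.17, 7.02 and 6.87 in Nkx2-1 low. It fell by 0.49 ± 0.09 (limma adjusted p = 0.0141), and leaving out high replicate 2 (adjusted p = 0.0607) or low replicate 2 (adjusted p = 0.0526) took the call away. The glypican gene Gpc6 fell by 0.39 ± 0.09 (limma adjusted p = 0.0392), but 4 of the 6 fits that dropped a sample did not call it (adjusted p at most 0.142), nor did the fit with cyclic loess (0.0868). The co-receptor gene Boc differed by -0.23 ± 0.14 and was not called. Its relative Cdon was not above background.

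Genes of the intracellular relay and of the cilium were close to level. Of 20 relay genes 1 fell and 0 rose (median -0.06). This was Gpr161, the ciliary receptor that restrains the pathway through protein kinase A, with -0.30 ± 0.07 (limma adjusted p = 0.0367), and none of the 6 fits that dropped a sample called it (adjusted p from 0.0735 to 0.131). The Gli inhibitor Sufu differed by -0.06 ± 0.08 and the kinesin gene Kif7 by 0.11 ± 0.09, neither called. Of 23 cilium genes 0 were called by limma (median -0.01), and 4 had an unadjusted p under 0.05. Of all genes, 12.4% had a smaller unadjusted limma p than Ptch1 (0.0189) and 23.1% a smaller one than Shh (0.0757). The share of all genes under 0.05 thus lies between 12.4% and 23.1%. Ift57 (-0.26 ± 0.11) and Dync2li1 (-0.23 ± 0.09), genes of transport along the cilium, had the largest differences of the list.

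Target genes moved both ways. Of 19 mesenchymal target genes 6 fell and 2 rose (median -0.04). Pax9, a paired-box gene of sclerotome and facial mesenchyme, was 2.42-fold lower, at 5.32, 5.73 and 5.79 in Nkx2-1 high and 6.91, 6.98 and 6.77 in Nkx2-1 low (-1.28 ± 0.13, limma adjusted p = 0.000426). The T-box gene Tbx2 (-0.68 ± 0.16) and the forkhead genes Foxd1 (-0.64 ± 0.15) and Foxf2 (-0.62 ± 0.15) fell with adjusted p from 0.0325 to 0.0464. Dropping a sample removed the call in 3 of 6 fits for Tbx2, 4 for Foxd1 and 5 for Foxf2, where the adjusted p reached 0.114, 0.127 and 0.133. Foxf2 also missed the threshold with median-centred arrays (0.0506) and with cyclic loess (0.0514), and Foxd1 lay next to the background level in Nkx2-1 high (4.32). Bmp4, a growth factor gene induced by Shh in several embryonic tissues, rose 1.95-fold, at 8.29, 8.10 and 8.14 in Nkx2-1 high and 7.29, 7.24 and 7.12 in Nkx2-1 low (0.97 ± 0.09, limma adjusted p = 0.000227). Grem1, which encodes an antagonist of such factors, rose by 0.66 ± 0.12 (limma adjusted p = 0.0104). Osr1 and Foxf1 fell as well and are named after their values were seen. Osr1 had only its GFP-negative mean above background and was at least 1.38-fold lower in GFP-positive cells. Dropping high replicate 2 (adjusted p = 0.0708) or low replicate 3 (adjusted p = 0.0523) ended its call. Foxf1 differed by -0.35 ± 0.08, or by -0.13 (adjusted p = 0.456) when the rows of that gene were averaged, and 5 of the 6 fits that dropped a sample did not call it.

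Among 9 neural target genes, which mark ventral domains of the neural tube, 1 rose and 0 fell (median 0.14). Nkx6-1, a homeobox gene of ventral progenitors, stood at 5.89, 6.05 and 6.16 in Nkx2-1 high and 5.02, 5.20 and 5.26 in Nkx2-1 low (0.87 ± 0.10, limma adjusted p = 0.000891). Foxa2, a forkhead gene of endoderm and floor plate, differed by -0.04 ± 0.10, and the ventral progenitor genes Nkx2-2 and Olig2 by 0.14 ± 0.10 and -0.03 ± 0.11, none of them called. Of 8 cell cycle and survival targets 1 fell and 0 rose (median -0.12). The cyclin gene Ccne1 stood at 6.56, 6.56 and 6.48 in Nkx2-1 high and 7.20, 7.21 and 7.30 in Nkx2-1 low and fell by 0.70 ± 0.08 (limma adjusted p = 0.000631). Ccnd1 and Mycn, cyclin and Myc family genes used as readouts of the pathway, differed by -0.08 ± 0.15 and -0.20 ± 0.09 without a call. Of 7 Gli-related zinc finger genes 0 were called by limma (median -0.02). An unadjusted p under 0.05 was found for 2 of the 7, and for between 12.4% and 23.1% of all genes. The 2 were Glis3 (0.49 ± 0.19, or 0.26 ± 0.14 without Nkx2-1 high replicate 3) and Zic2 (-0.38 ± 0.12).

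**Figure D4:**
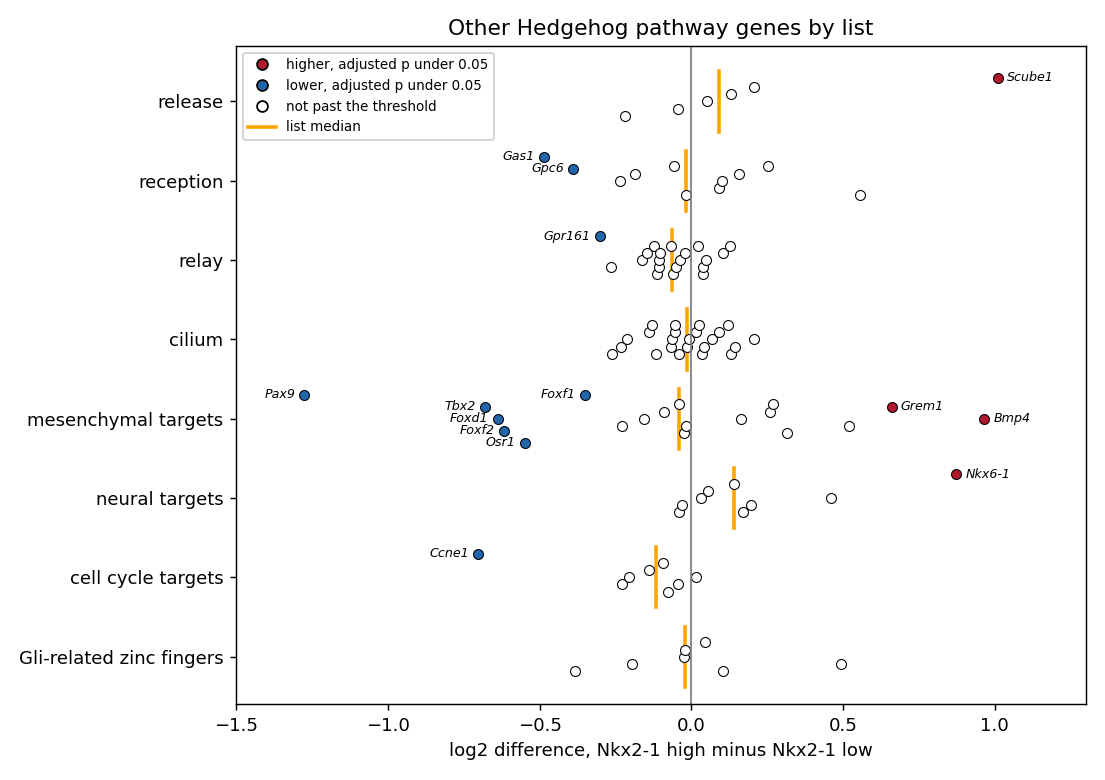
Log2 difference, Nkx2-1 high minus Nkx2-1 low, of the 103 measured genes in 8 Hedgehog pathway lists, 1 point per gene, with orange lines at the list medians and vertical scatter for legibility. Filled points are the 14 genes called, 4 higher and 10 lower, and the cilium and Gli-related lists have none.

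Markers of other cell types moved with the fractions. Of 10 mesenchyme markers 7 fell and 0 rose, and the mean log2 level of the list ran from 7.60 to 8.05 in Nkx2-1 high and from 8.82 to 9.17 in Nkx2-1 low. All 10 were above background, among them the receptor gene Pdgfra (-2.0 ± 0.17) and the homeobox gene Prrx1 (-1.90 ± 0.14), which fell. The other 3, the receptor gene Pdgfrb (0.04 ± 0.16) and the matrix genes Dcn (0.16 ± 0.14) and Lum (-0.74 ± 0.22), were not called. Of 8 neuron markers 6 fell, with list means from 4.49 to 4.77 in Nkx2-1 high and from 5.48 to 5.59 in Nkx2-1 low. Gli1, Gli3, Gas1 and the 6 mesenchymal targets that fell were lower in the same fraction as these lists, while Bmp4 and Grem1 were higher there, and the part of such cells in these differences was not tested. In sorted cells measured in bulk, fewer cells of a type and less RNA per cell cannot be told apart.

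Few markers of the cells known to make these ligands were called. Of 9 epithelial markers 1 fell and 0 rose, 6 were above background, and list means ran from 4.38 to 4.61 in Nkx2-1 high and from 4.53 to 4.83 in Nkx2-1 low. The gene that fell was Epcam (-0.81 ± 0.11, limma adjusted p = 0.0030), at 5.13 in Nkx2-1 low and next to the background level in Nkx2-1 high (4.31). Cdh1 (-0.36 ± 0.12) and Krt18 (0.35 ± 0.12) did not overlap between the groups, went opposite ways and were not called. Of 6 measured genes of the floor plate and ventral midline, a list that holds Shh and Foxa2, 1 fell. This was Ferd3l, which had only its GFP-negative mean above background and was at least 1.26-fold lower in GFP-positive cells. Ntn1 averaged 6.08 in Nkx2-1 high and 6.87 in Nkx2-1 low without overlap, and was not called (-0.79 ± 0.21, limma adjusted p = 0.0628). Foxj1 (0.06, not above background) had the only positive difference of the list. The list mean was highest in replicate 3 of each group (5.57 and 5.91), as was Shh. Of 8 cartilage markers 2 were above background, Col2a1 and Col9a1. Of 5 measured markers of Schwann cells and glia 4 were above background and 0 were called by limma. An unadjusted p under 0.05 was found for 1 (S100b, not above background), and for between 12.4% and 23.1% of all genes. Of 8 endothelial markers 2 rose, Flt4 and Tek, and 6 were above background. The others were not called. Their differences were positive for Pecam1 (0.33), Emcn (0.59) and Erg (0.09) and negative for Tie1 (-0.19), Cdh5 (-0.17) and Kdr (-0.08). The thyroid genes Pax8 (0.60 ± 0.10) and Hhex (0.98 ± 0.15) rose, while Foxe1 of the same list, above background in both groups, was not called (0.16 ± 0.09). The mature markers Tg, Tshr, Sftpc and Scgb1a1 of thyroid and lung were not above background. The surfactant gene Sftpb was a little above it in both groups (4.76 in Nkx2-1 high and 4.58 in Nkx2-1 low). Its groups did not overlap, and it was not called (0.18 ± 0.09). The GFP-positive fraction is described here by its sort and not as mature tissue. Among the lung markers other than Nkx2-1, Id2 fell (-0.46 ± 0.10) and 0 rose. Sox9 (-0.03 ± 0.07) and Etv5 (-0.01 ± 0.08) were above background and not called. The mean of the lung list differed by 0.25 with Nkx2-1 and by -0.11 over the other 6 genes, which ran from 5.54 to 5.64 in Nkx2-1 high and from 5.66 to 5.74 in Nkx2-1 low.

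**Figure D5:**
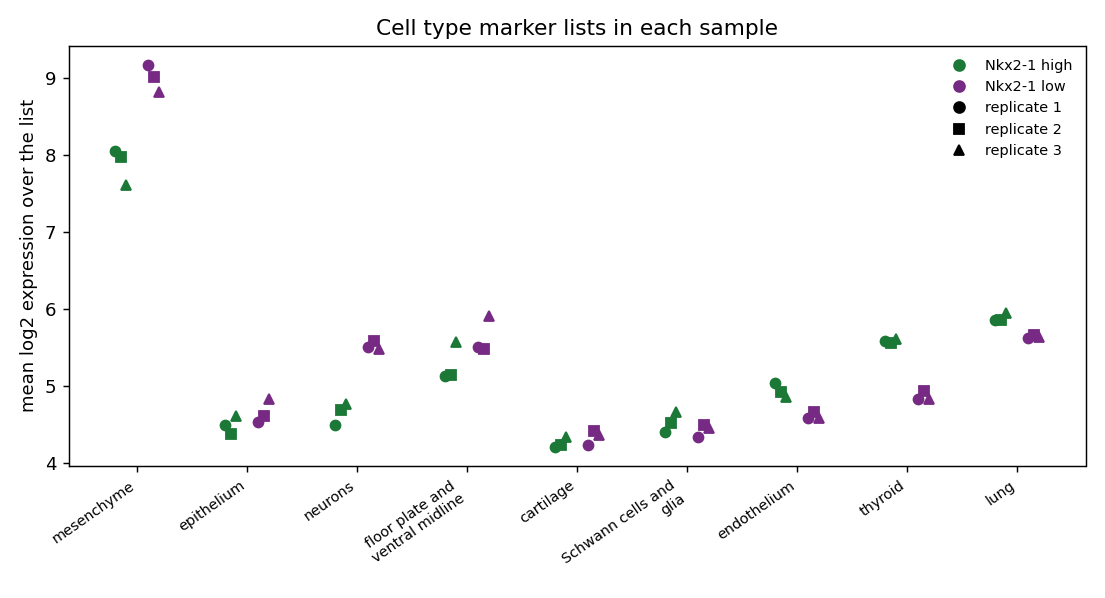
Mean log2 expression over each of 9 cell type marker lists in each sample, green for Nkx2-1 high and purple for Nkx2-1 low, with symbols for the replicate number. The mesenchyme and neuron lists lie lower in all 3 Nkx2-1 high samples, and the endothelium, thyroid and lung lists lie higher. The sorted gene, Nkx2-1, is in the last 2 of these lists, and without it the lung list is lower in Nkx2-1 high (-0.11) and the thyroid list still higher (0.38). Of the 8 endothelial markers, only Flt4 and Tek were called.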

How the data were processed

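Total RNA of the 6 sorted samples went through WT-Ovation Pico amplification, which can change relative signals, and biotin labelling for arrays, per the labels' protocols. The authors deposited log2 expression values. The submitters' processing notes name RMA, with its version and the genome build not given in the sources used here. The log2 scale was taken from RMA and the range of the values. Scanner files, background correction, slides and scan dates were not analysed here.

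Of 29011 rows, 21789 carried a single symbol in the platform annotation of GEO. For each gene the row with the highest mean was used (19938 genes). The comparison used limma (version 3.58.1, R 4.3.3): lmFit with group alone as a term, then eBayes, over all 6 samples, with Benjamini-Hochberg adjustment over 19938 genes, after the script was tested on simulated data. Folds are 2 to the power of the log2 difference, or taken against the background level, from 1207 receptor rows, where 1 group lay under it. Promoters are from RefSeq, where 7 of 9 members matched. Members, lists and tests were chosen with earlier results of these data known. Named are the 9 members, Nkx2-1, up to 6 called genes of each list (2 where none was called), the 3 nearest genes by pattern, and genes that illustrate a list or a marker count, which were chosen after their values were seen. Alternatives were median centring, cyclic loess, 2 background filters (95th and 99th percentile), array weights, robust eBayes with a variance trend, a replicate block, row means, a threshold of 0.01, leaving out each sample, and leaving out both samples numbered 3. The number of arrays limits the precision. Figures used matplotlib 3.10.9.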

Additional observations from a re-analysis of the deposited data

How the results depend on the processing

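Gli1 kept its direction and its call under all 15 alternatives, with adjusted p from 0.0018 to 0.0373, and Gli3 its call under 12 of 15. Without both samples numbered 3, Gli3 was at -0.39 (adjusted p = 0.106), Ptch1 passed at -0.45 and Hhip turned to 0.13. Over the 6 fits without 1 sample, differences ran from -0.72 to -0.53 for Gli1, from -0.62 to -0.43 for Gli3, from -0.19 to -0.11 for Gli2, from -0.66 to -0.30 for Ptch1, from -0.12 to -0.04 for Smo, from -0.50 to -0.17 for Shh, from -0.11 to 0.033 for Ihh, from -0.034 to 0.19 for Dhh and from -0.23 to 0.16 for Hhip.

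Deviations from the group means, compared over 19938 genes, correlated between same-numbered samples at 0.18, -0.004 and 0.28 for numbers 1, 2 and 3. Between samples with different numbers the correlations ran from -0.27 to 0.15. The main fit did not pair the samples. With the replicate block, Shh (-0.35, adjusted p = 0.0418) and Ptch1 (-0.52, adjusted p = 0.00833) passed as well, which made 4 members called, and 1470 genes were called in all. Samples numbered 1 and 3 correlated best with their own number, and those numbered 2 did not. The block left 0 relay genes and gave 1 Gli-related gene, Glis3 (adjusted p = 0.0106), while Foxf2 (0.0569) and Gpr161 (0.0503) lost their calls. Paired by number, each Gli comparison can reach no smaller p than 0.25; the values were 0.25 for Gli2 minus Gli3 and Gli1 minus Gli2 and 0.5 for Gli1 minus Gli3.

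The number of genes called was 1196, from 624 to 1086 in the fits without 1 sample (without replicate 2 of Nkx2-1 high 624 and of Nkx2-1 low 709, without replicate 1 of these groups 772 and 765). At an adjusted p of 0.01 it was 507, with 1 member, 2 mesenchymal targets and 0 release, reception and relay genes. Reception had 1 call with cyclic loess, and neural targets 2 with only genes above background or with the variance trend. Without both samples numbered 3, 5 mesenchymal targets, 1 reception gene and 0 relay genes were called. In the fits without 1 sample, members called ran from 1 to 2, release from 0 to 1, reception from 0 to 2, relay from 0 to 0, mesenchymal targets from 4 to 7 and neural targets from 1 to 2. Gli1 minus Gli2 ran from -0.55 to -0.38, Gli1 minus Gli3 from -0.23 to 0.02 and Gli2 minus Gli3 from 0.32 to 0.45. The causes were not tested. Among the other genes named, Foxf2 also lost its call with array weights (adjusted p = 0.0563), and Foxd1, Foxf2, Foxf1, Osr1, Gpc6 and Gpr161 lost theirs without both samples numbered 3 (adjusted p from 0.0814 to 0.135). Leaving the sorted gene out of the marker lists, chosen after seeing the data, took the mean difference of the lung list from 0.25 to -0.11 and that of the thyroid list from 0.72 to 0.38. Values near the background level of 4.30, such as those of Dhh and Hhip, limit how far a difference can be seen.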
